A study of Mus musculus with 12 samples.

Results

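The SOX transcription factors expressed by neural progenitors were followed through the neuronal differentiation of P19 cells, a mouse embryonal carcinoma line of wild-type genotype. The 8 genes were Sox1, Sox2, Sox3, Sox4, Sox9, Sox11, Sox12 and Sox21, out of 14042 genes with reads, and were taken as every direct RNA read that bore one of these gene names, the transcript class mRNA and a passing poly(A) quality tag. They gave 3408 reads, 0.0797% of the 4274320 kept. P19 cells grown in serum-containing medium formed the D0 group, and cells held for 2, 4 or 6 days in NDiff 227 medium with retinoic acid formed the D2, D4 and D6 groups, each with 3 libraries. Every group is the same line, and retinoic acid, the change of medium and the time in culture cannot be told apart. Poly(A) RNA was sequenced as native strands on nanopores, so that 1 read stands for 1 molecule, read from its 3′ end together with its tail.

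SOX proteins bind the minor groove of DNA through an HMG box and bend it, and most act beside a partner factor such as a POU protein. The SOXB1 factors (Sox1, Sox2, Sox3) hold neural progenitors in an undifferentiated state, and Sox2 also works with the POU factor Oct4, encoded by Pou5f1, in pluripotent cells. Sox21, of the SOXB2 subgroup, is a repressor that counters SOXB1 activity. Sox9, of the SOXE subgroup, marks progenitors that can form glia. The SOXC factors (Sox4, Sox11, Sox12) are activators of neuronal genes in cells leaving the progenitor state.

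The libraries held between 120326 (D2 replicate 1) and 613756 kept reads (D0 replicate 2), and the D2 libraries were the shallowest of the 4 days. Levels are given as CPM, the reads of a gene per 1000000 kept reads of its library after scaling, not divided by transcript length since each molecule gives 1 read. Cell-state markers moved with the days. Of the 10 markers of undifferentiated cells, 5 had reads, and their summed level was 1692 to 2019 CPM in the D0 libraries, no more than 12.04 in those of D2, 0 in those of D4 and 8.12 to 11.1 in those of D6. Of the 10 reads behind the D6 sum, 9 were of Esrrb. This marker went the other way, from 1 read at D0 (0.70 CPM) to 8.31 CPM at D6. Pou5f1 stood at 1706 CPM before differentiation and 0.902 at D6, and 5 defining markers (Dppa5a, Zfp42, Fgf4, Klf4 and Dnmt3l) were at 0 on every day. The 8 neural progenitor markers summed to 460 to 500.2 CPM at D0 and 2615 to 3095 CPM at D6, the 12 neuronal markers to 564 to 615 CPM and 3194 to 3500.3 CPM. The 9 glial markers summed to 73.5 to 111 CPM in the D0 libraries, 0 to 44.1 in those of D2, 68.0 to 107 in those of D4 and 46.0 to 63.1 in those of D6, with Aqp4, S100b and Olig1 at 0 throughout and Slc1a3 called lower at D6 than at D0. In these bulk samples, a change in the number of cells of one type and a change in RNA per cell cannot be told apart, and the part of cell makeup in the results that follow was not tested.

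The 3′ ends of the reads show which molecule each gene made. Positions are on the mm10 (GRCm38) build with GENCODE transcripts, and an end was counted as a site where at least 8 reads and 5% of the gene's reads stopped within 25 nt of each other. Sox2 (chromosome 3, 34650405 to 34652461, 1 exon), Sox3 (chromosome X, 60891366 to 60893430, 1 exon) and Sox4 (chromosome 13, 28948919 to 28953713, 1 exon) each used 1 end, at or 2 nt before the annotated end, which held 98.8%, 99.5% and 96.4% of their reads. Sox11 (chromosome 12, 27334264 to 27342574, 1 exon, 8311 nt) used 3 ends in its 3′ untranslated region, with 86, 191 and 184 reads. Sox12 (chromosome 2, 152393611 to 152398063) ended 1291 nt before its annotated end in 86.2% of reads. No site of Sox1 (chromosome 8, 12395295 to 12400126, 1 exon) lay at its annotated end: the sites with most reads were 960 and 582 nt before it, with 42 and 43 reads.

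A poly(A) signal is the hexamer read by the cleavage machinery shortly upstream of an mRNA end. AATAAA or its common variant ATTAAA was looked for in the 40 nt before each end on the transcript strand, and is shown in capitals in the 30 bases around it, because the ends they precede set the length of these mRNAs and differ in number between the genes.

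Sox1, end 960 nt before the annotated end, chr8:12399137-12399166: gacagcATTAAAtattgcatttaaaagtta
Sox1, end 582 nt before the annotated end, chr8:12399515-12399544: gctttctgatgaggtAATAAAagaacaccc
Sox2, chr3:34652432-34652461: aAATAAAtttttgaaatatggacactgaaa
Sox3, chrX:60891368-60891397: aagtgagagatcAATAAAttttataaccaa
Sox4, chr13:28948919-28948948: aAATAAAatcagctggaactgaaccctaaa
Sox11, proximal end, chr12:27339802-27339831: AATAAAcagaccattgcatatttagtagca
Sox11, end 951 nt before the annotated end, chr12:27335215-27335244: gaccAATAAAaatcgtgtgatcaatctcca
Sox11, end 328 nt before the annotated end, chr12:27334592-27334621: gcatattaATTAAAtttggttttgtagaaa
Sox12, proximal end, chr2:152394902-152394931: ccaggactgAATAAAgtgtatttgccccga
Sox12, annotated end, chr2:152393611-152393640: tttatcctAATAAAcgtcttaacacccaaa

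All of these ends lay in the annotated 3′ untranslated regions. Sox2, Sox3 and Sox4 carried AATAAA at their only end, and Sox11 and Sox12 a signal at each of theirs. Sox9 (chromosome 11, 112782224 to 112787760, 3 exons) ended 5 nt before its annotated end in 58 of 86 reads and 1845 nt before it in 14. Sox21 (chromosome 14, 118233232 to 118237030, 1 exon) ended at its annotated end in 79 of 98 reads and 162 nt before it in 15.

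**Figure D1:**
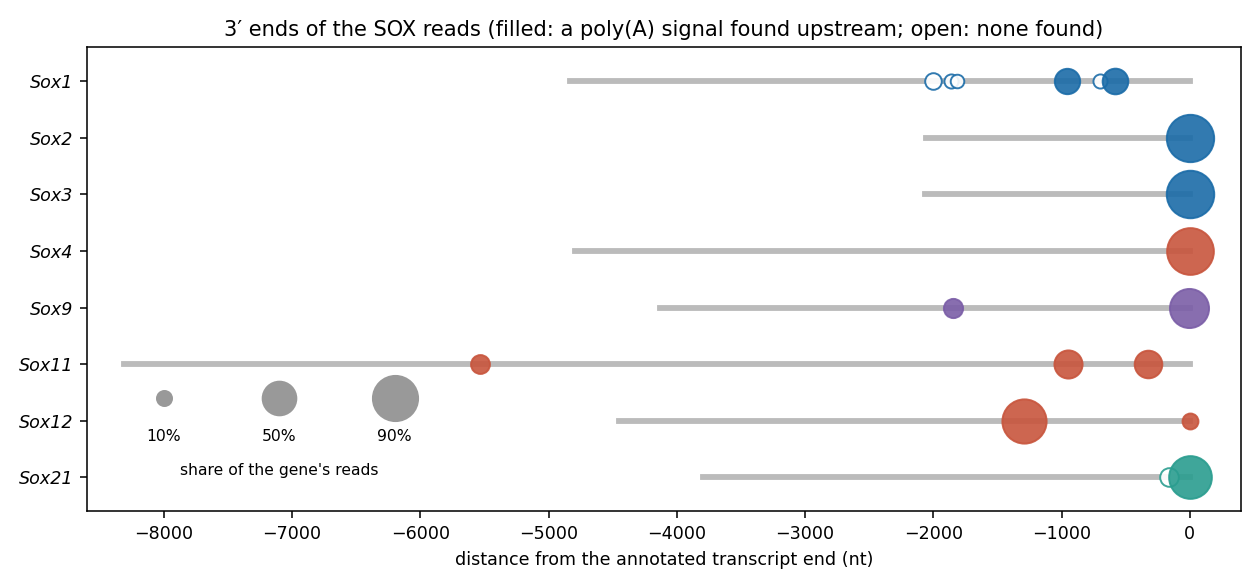
Each grey line is a transcript, drawn to its annotated end at 0 (x axis, distance in nt), and each circle a 3′ end whose area is its share of the gene's reads; filled circles have a poly(A) signal in the 40 nt before the end. Sox2, Sox3 and Sox4 have 1 circle each at 0, whereas Sox11 has 3 and Sox12 has its larger one 1291 nt before the annotated end.

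Among the SOXB1 genes, the level of Sox2 fell at the start of differentiation and that of Sox1 rose. Sox2 stood at 275, 248 and 267 CPM in D0 replicates 1, 2 and 3, and at 118, 181 and 154 CPM in the D2 replicates. It remained at 151, 159 and 148 CPM at D4, and stood at 204, 220 and 173 CPM at D6. No D2, D4 or D6 library reached the lowest D0 library. The change from D0 to D2 was -0.74 ± 0.19 on the log2 scale (SE; limma-voom, adjusted p = 0.00434), a call lost only in the draw thinned to the smallest library (-0.30), and that from D0 to D6 was -0.39 ± 0.15 (limma-voom, adjusted p = 0.0287). The D6 call for Sox2 did not hold in 6 of 21 alternative settings, which included the fit without D6 replicate 3 (-0.29) and that with the replicate block (-0.39). With library totals in place of scaling factors, which shifted all D6 against D0 changes by 0.23, it was -0.15, and in the thinned draw the direction turned (0.054).

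Sox1, among the earliest markers of the neural plate, moved the other way and from a far lower level. It had 6, 3 and 6 reads in the D0 replicates (14.2, 5.56 and 12.6 CPM) and 13, 25 and 9 in the D2 replicates (102, 100.3 and 47.8 CPM). It then stood at 32.6, 51.6 and 51.0 CPM at D4 and at 26.0, 37.8 and 24.4 CPM at D6. Every later library lay above every D0 library, and the D2 libraries spanned a wide range, with D2 replicate 3 inside that of D4. The rise from D0 to D2 was 2.92 ± 0.43 on the log2 scale, or 7.58-fold (limma-voom, adjusted p = 5.34e-07), and this call held in all 21 alternatives. The decreases from D2 to D4 (-0.77 ± 0.31, limma-voom, adjusted p = 0.189) and from D4 to D6 (-0.61 ± 0.34, limma-voom, adjusted p = 0.286) did not pass the test, the first of these passing without D2 replicate 3 (-1.10). At D6 Sox1 was still 2.91-fold above D0 (limma-voom, adjusted p = 0.00511), a call lost without D0 replicate 2 (1.06 on the log2 scale) and in the draw thinned to the smallest library.

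Sox3, the SOXB1 gene on the X chromosome, measured 166, 133 and 143 CPM in the D0 replicates and 180, 201 and 196 CPM in the D2 replicates. The D4 replicates gave 196, 197 and 334 CPM and the D6 replicates 208, 176 and 222 CPM. The D4 mean of 242 ± 79.4 (SD, n = 3) rested on D4 replicate 3. None of the steps between neighbouring days passed the test, although that from D0 to D2 (0.42 ± 0.20) passed with library totals in place of scaling factors (0.62). The difference between D6 and D0 was 0.45 ± 0.17 on the log2 scale (limma-voom, adjusted p = 0.0352). That call was lost in 10 of 21 alternatives, including those without D0 replicate 2 (0.32), D0 replicate 3 (0.40), D6 replicate 1 (0.42) and D6 replicate 3 (0.37).

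The 3 SOXB1 genes summed to 421 ± 33.9 CPM at D0 and 427 ± 47.7 at D2, and then to 440 ± 81.9 and 431 ± 9.68 at D4 and D6 (SD, n = 3). The libraries of each later day overlapped those of D0. A two-sided exact permutation test of 3 against 3 libraries cannot give a p below 0.10, so that none of the exact tests here could pass 0.05, and no stability is read from these sums. Within this sum the shares differed. Sox2 was 62.6 ± 1.92% of SOXB1 reads at D0 and 46.2 ± 4.73% at D6, Sox3 went from 34.9 ± 1.37% to 47.0 ± 6.18%, and Sox1 from 2.52 ± 0.938% to 6.81 ± 1.63%, with 19.4 ± 6.85% at D2. In each case the D0 and D6 libraries did not overlap (exact p = 0.10, or 0.12 after Benjamini-Hochberg adjustment over the 6 shares tested). These shares are taken within a library and do not depend on depth or scaling, but the 3 shares of a subgroup are tied to one another.

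**Figure D2:**
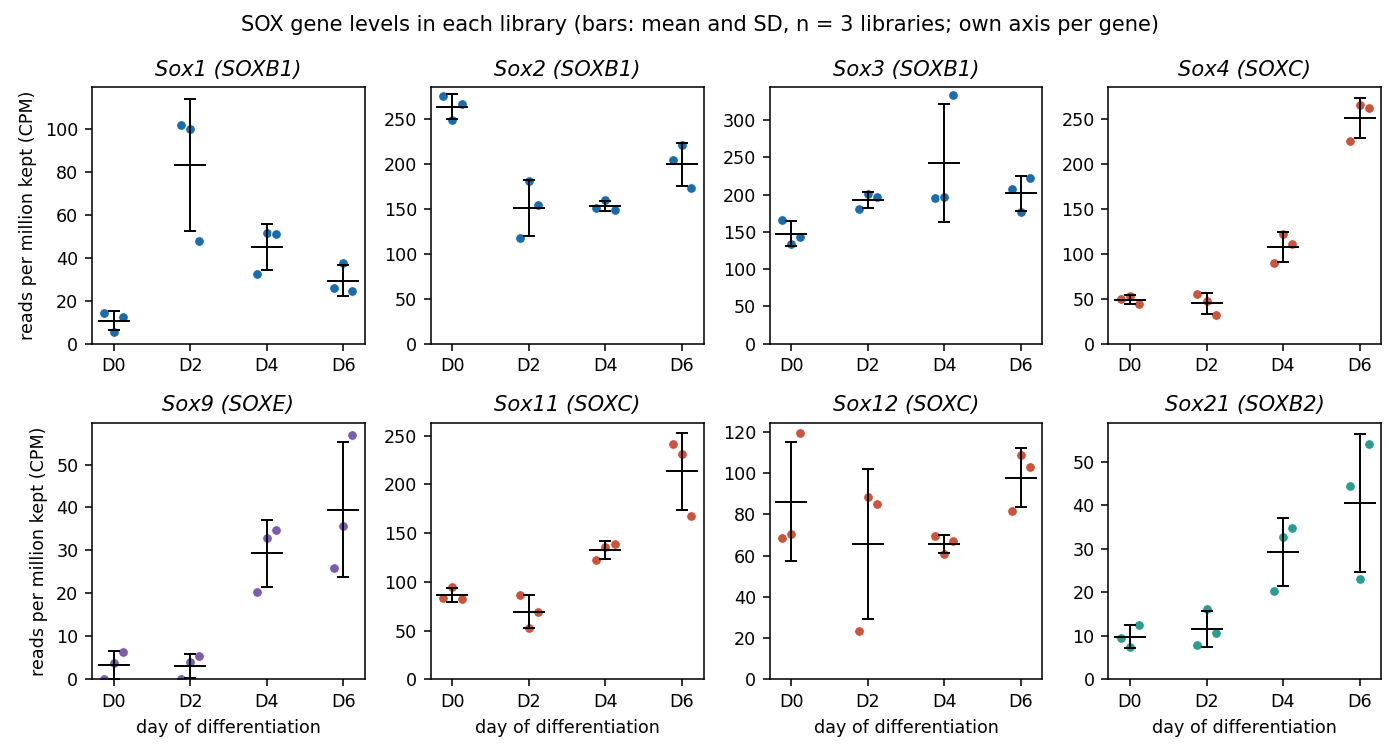
CPM of each SOX gene (y axis, own scale per gene) in each library by day (x axis), with the mean and SD of 3 libraries as black bars; the lower SD bars of Sox9 are cut at 0. Sox2 is highest at D0, Sox1 at D2, and Sox4, Sox9, Sox11 and Sox21 stand higher in every D6 library than in any D0 library.

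The repressor gene Sox21 and the progenitor gene Sox9 were rare before differentiation. Sox21 had 4, 4 and 6 reads in the D0 replicates (9.48, 7.41 and 12.6 CPM), 1, 4 and 2 in those of D2, 5, 14 and 15 in those of D4 and 12, 11 and 20 in those of D6 (44.5, 23.1 and 54.1 CPM). Each D6 library exceeded each D0 library, although the D6 libraries themselves ranged widely. Between D0 and D6 the level rose 3.55-fold (1.83 ± 0.44 on the log2 scale, limma-voom, adjusted p = 0.000556), a call lost only in the draw thinned to the smallest library (1.31). Sox21 reached the minimum number of reads for testing only through D4 and D6, the days on which it is high. Its call is therefore partly set by that minimum. The step from D2 to D4 was 1.12 ± 0.55 and did not pass (limma-voom, adjusted p = 0.306).

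Sox9 had 0, 2 and 3 reads in the D0 replicates, 0, 1 and 1 in those of D2, 5, 14 and 15 in those of D4 and 7, 17 and 21 in those of D6. The counts at D4 are those of Sox21 as well, for different reads. Its mean level was 3.33 ± 3.17 CPM before and 39.5 ± 15.8 CPM after the 6 days (SD, n = 3), a rise of 3.50 ± 0.62 on the log2 scale (limma-voom, adjusted p = 4.28e-06). Without D0 replicate 1, which had no Sox9 read, the rise was 2.75. Sox9 likewise reached the minimum number of reads only through D4 and D6, so its calls on those days are partly set by it. The step from D2 to D4 was called (2.46 ± 0.68, limma-voom, adjusted p = 0.0231) from 2 reads at D2 and 34 at D4, a pooled ratio of 8.71 with a 95% counting interval of 2.23 to 74.8, and the call did not hold in 5 of 19 alternatives: with reads of mapping quality at least 10, and without D2 replicate 1 (2.25), D2 replicate 2 (2.50), D2 replicate 3 (2.72) or D4 replicate 3 (2.35).

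The SOXC genes Sox4 and Sox11 rose in the same steps, after D2, while Sox12 did not pass the test in any comparison. Sox4 measured 49.8, 53.7 and 44.1 CPM in the D0 replicates and 54.9, 48.2 and 31.9 CPM at D2. It reached 89.8, 122 and 111 CPM at D4 and 226, 266 and 263 CPM at D6. The D0 and D2 libraries overlapped, and each subsequent day lay wholly above the day before it. The step from D2 to D4 was 1.27 ± 0.31 on the log2 scale (limma-voom, adjusted p = 0.0078; not called without D2 replicate 2, 1.37, or D2 replicate 3, 1.08), that from D4 to D6 was 1.203 ± 0.18 (limma-voom, adjusted p = 8.05e-07), and over the 6 days Sox4 rose 5.08-fold (limma-voom, adjusted p = 4.93e-15). The D4 to D6 and D0 to D6 calls held in all 21 alternatives.

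Sox11 measured 82.9, 94.5 and 81.9 CPM in the D0 replicates and 86.2, 52.2 and 69.0 CPM in the D2 replicates. It reached 122, 136 and 139 CPM at D4, then 241, 231 and 168 CPM at D6. As for Sox4, D4 lay above D2 and D6 above D4 without overlap. The rise was 1.01 ± 0.27 from D2 to D4 (limma-voom, adjusted p = 0.0176), 0.64 ± 0.18 from D4 to D6 (limma-voom, adjusted p = 0.0108) and 1.27 ± 0.18, or 2.41-fold, from D0 to D6 (limma-voom, adjusted p = 4.34e-08). Only the last of these held in all 21 alternatives. The D2 to D4 call was lost without D2 replicate 2 (0.78), with reads of mapping quality at least 10 (0.93) and in the thinned draw (0.86). The D4 to D6 call was lost without D4 replicate 1 (0.57), D4 replicate 2 (0.63) or D6 replicate 2 (0.55), with limma-trend (0.66) and in the thinned draw (0.82).

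Sox12 measured 68.7, 70.4 and 120 CPM in the D0 replicates and 23.5, 88.3 and 84.96 CPM in the D2 replicates. It stood at 69.4, 60.9 and 67.2 CPM at D4 and at 81.7, 109 and 103 CPM at D6. The D0 and D6 libraries overlapped, and the difference was 0.25 ± 0.22 on the log2 scale (limma-voom, adjusted p = 0.393). Those of D4 and D6 did not overlap. The step between them, 0.60 ± 0.25 (limma-voom, adjusted p = 0.135), was not called but lay near the called Sox11 step of 0.64. D2 replicate 1 held 3 Sox12 reads, in the shallowest library. Reads of this gene split between 2 near-identical transcripts, and only 0% and 23.6% of those assigned to each had a mapping quality of at least 10, against 97.7 to 100% for the transcripts of the other members, which leaves the count per gene but not per transcript.

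The SOXC genes summed to 222 ± 22.3 CPM at D0 and 180 ± 13.1 at D2, and then to 306 ± 21.2 and 563 ± 38.3 at D4 and D6 (SD, n = 3), with D2 wholly below D0 and both later days wholly above it (exact permutation p = 0.10, the smallest possible). Within the subgroup, Sox4 went from 22.4 ± 3.86% of reads at D0 to 44.8 ± 4.08% at D6 and Sox12 from 38.3 ± 9.03% to 17.4 ± 2.27% (exact p = 0.10, adjusted 0.12 for both). Sox11 held 39.2 ± 5.22% at D0 and 37.8 ± 6.23% at D6 (exact p = 0.80). With reads of mapping quality at least 10, which remove most Sox12 reads, the differences for Sox11 and Sox12 were -14.0 and -5.41 percentage points in place of -1.43 and -21.0.

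**Figure D3:**
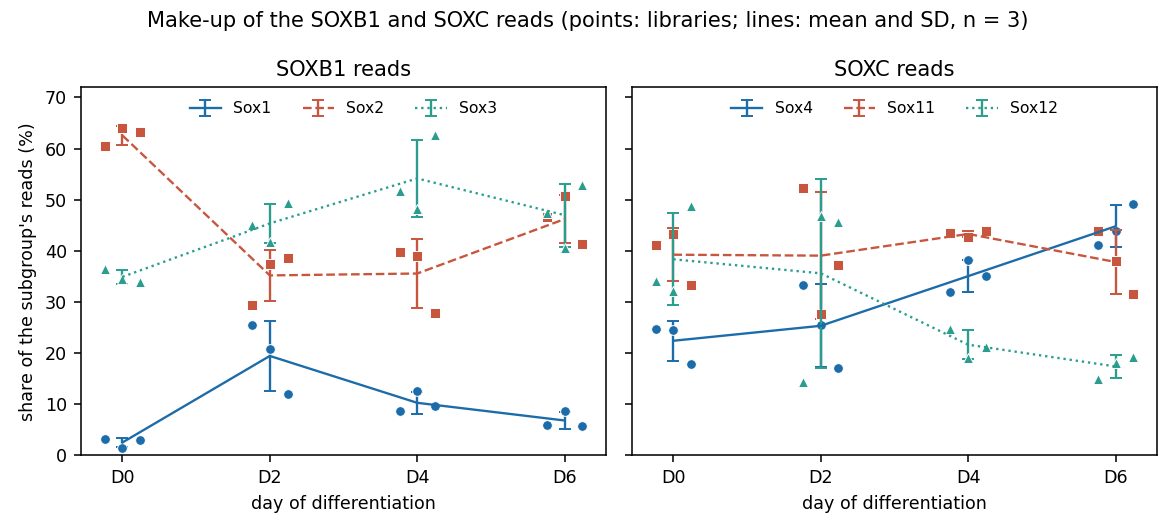
Share of SOXB1 reads (left) and SOXC reads (right) held by each gene, in percent (y axis), by day (x axis), with libraries as points and the mean and SD of 3 libraries as lines and bars. The Sox2 share is 62.6% at D0 and 46.2% at D6, the Sox4 share 22.4% and 44.8%, and the Sox12 share 38.3% and 17.4%.

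Across the 8 genes, 1 was called higher at D2 than at D0 (Sox1) and 1 lower (Sox2), where 4.48% and 6.32% of the 9309 genes tested were called higher and lower. From D2 to D4, 3 were called higher (Sox4, Sox9, Sox11) and 0 lower, against 2.01% and 1.02% of all genes. Without D2 replicate 2 none of the 3 passed, at changes of 1.37 (Sox4), 2.50 (Sox9) and 0.78 (Sox11) in place of 1.27, 2.46 and 1.01, and the thinned draw gave 0 calls. From D4 to D6, 2 were called higher (Sox4, Sox11) and 0 lower, against 4.44% and 3.92%. Between D0 and D6, 6 were called higher, 1 lower (Sox2) and 1 neither (Sox12), against 19.4% and 18.2%. A call is an adjusted p of at most 0.05, and all 8 genes passed the minimum of 30 reads over the 12 libraries. Sox9 (5 and 2 reads at D0 and D2) and Sox21 (14 and 7) did so only through D4 and D6. Their calls on those days are partly set by this minimum.

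**Figure D4:**
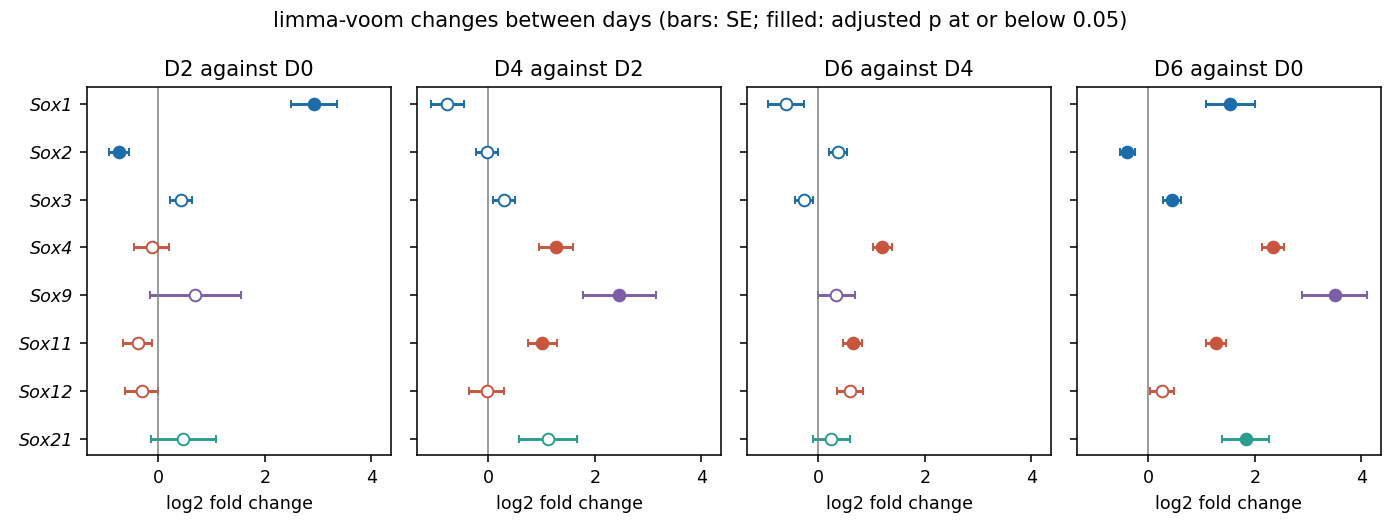
Change of each SOX gene between days on the log2 scale (x axis), with its SE as bars and filled points where the limma-voom adjusted p was at most 0.05. Sox1 moves in the first panel, Sox4 and Sox11 in the next 2, and Sox12 has an open point in all 4.

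The order of the levels changed over the 6 days. At D0 it ran Sox2, Sox3, Sox11, Sox12, Sox4, Sox1, Sox21 and Sox9, and the ranges of Sox11 and Sox12 and of Sox1 and Sox21 overlapped. At D2 Sox3 led Sox2 with overlapping ranges, and the ranges of Sox1, Sox11, Sox12 and Sox4 each overlapped the next. At D4 the order was Sox3, Sox2, Sox11, Sox4, Sox12 and Sox1, with no overlap between neighbours among these 6, followed by Sox9 and Sox21 at the same mean of 29.3 CPM. At D6 Sox4, Sox11, Sox3 and Sox2 stood between 199 and 252 CPM with overlapping neighbours, Sox12 at 97.9 CPM, and Sox21, Sox9 and Sox1 between 29.4 and 40.6 CPM with overlapping neighbours.

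Poly(A) tails, the run of adenosines that the poly(A)-binding protein coats, were longer on Sox11 than over all reads, and longer in each D6 library than in any D0 library, a difference that did not pass the test. The median tail of Sox11 was 125, 124 and 138 nt in the D0 replicates and 153, 130 and 135 nt in the D2 replicates. It was 139, 136 and 145 nt in those of D4 and 148, 162 and 161 nt in those of D6. The D6 libraries lay wholly above the D0 libraries. Over all kept reads the medians were 103 ± 2.67 nt at D0 and 102 ± 1.03 nt at D6 (SD, n = 3). The difference for Sox11 was 27.9 nt, with a 95% interval of 10.3 to 45.5 nt, an unadjusted limma p of 0.00703 and an adjusted p of 0.259 over the 3518 genes with at least 10 reads in each D0 and D6 library. It did not pass, where a call was made for 0.0284% of those genes, 1 gene, while 475 had an unadjusted p under 0.05. The median change over those genes was 3.75 nt. Weighted by the number of reads, Sox11 passed at a difference of 29.2 nt, in a fit that called 5.97% of those genes, and leaving out any 1 library left 25.1 to 32.6 nt.

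The higher Sox11 median at D6 was seen at each of its 3 ends when the reads of a day were pooled. The pooled medians at D0 and D6 were 129 and 168 nt at the proximal end, 134 and 167 nt at the end with the AATAAA 951 nt before the annotated end, and 125 and 165 nt at the end with ATTAAA. The proximal end had 20 and 30 reads on these days. The proportion of Sox11 tails of 30 to 90 nt was 18.1 ± 8.35% at D0 and 11.8 ± 4.73% at D6 (SD, n = 3), and that of tails under 30 nt was 3.20% and 2.95% of the pooled reads.

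For the other SOX genes with enough reads the libraries of the 2 days overlapped in median tail length. The D6 minus D0 difference of the medians was 9.55 nt for Sox4 (95% interval -10.04 to 29.1), 4.78 nt for Sox12 (-16.5 to 26.1), 4.62 nt for Sox3 (-12.9 to 22.1) and 2.74 nt for Sox2 (-16.8 to 22.3). The limma adjusted p-values ran from 0.667 to 0.917. In the share of tails of 30 to 90 nt none of these 5 genes passed, as 0% of the 3518 genes did with limma (404 at an unadjusted p under 0.05). The largest difference was that of Sox4, from 31.7 ± 7.20% to 22.4 ± 3.06% (limma, adjusted p = 0.526). Sox1, Sox9 and Sox21 had too few reads at D0 (15, 5 and 14) for the test. At D6 their pooled medians were 142, 141 and 112 nt.

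**Figure D5:**
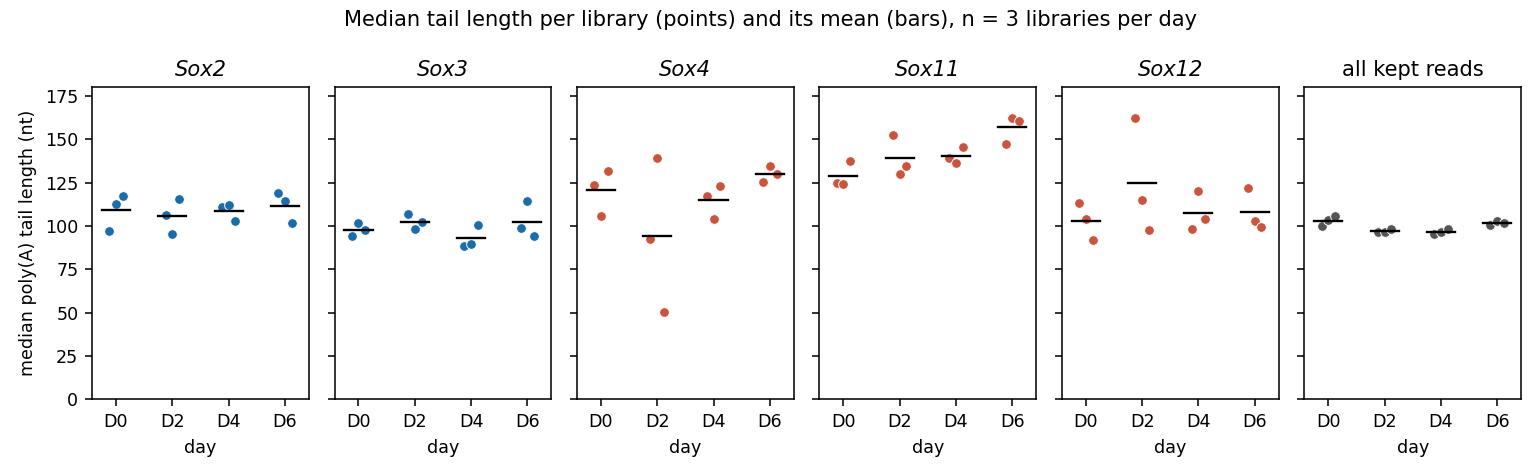
Median poly(A) tail length in nt (y axis) of 5 SOX genes and of all kept reads in each library (points) by day (x axis), with the mean of 3 libraries as a bar. Sox11 libraries sit between 124 and 138 nt at D0 and between 148 and 162 nt at D6, while all kept reads stay between 95.2 and 106 nt; the wide D2 spread of Sox4 and Sox12 comes with 3 to 22 reads a library.

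The choice among 3′ ends was compared for the genes with several sites and at least 10 reads in each D0 and D6 library, a comparison chosen after the data were seen. Reads at the 2 distal ends were 73.1, 82.1 and 80.6% of the Sox11 reads at sites in the D0 replicates and 88.7, 85 and 84.2% in the D6 replicates. The libraries did not overlap, with a difference of 7.37 percentage points (exact permutation p = 0.10, 0.20 after adjustment over 2 genes). At D2 the distal share was 70, 42.9 and 50%, from 10, 7 and 8 reads, below each D0 library, and at D4 it was 65.4, 87.2 and 82.5%. For Sox12 the share at the annotated end was 8.77 ± 3.05% at D0 and 15.2 ± 4.69% at D6 (SD, n = 3), with overlapping libraries (exact permutation p = 0.30).

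Genes known as partners of SOX proteins or as progenitor genes were followed beside them. Of 36 listed, which include all 8 progenitor markers named above, 31 reached 30 reads and were tested between D0 and D6, and 18 were called higher and 5 lower, where 19.4% and 18.2% of all genes were. Several of the 18 reached that minimum through the later days in which they are high, so nothing is read from the count. Those with the largest change and no overlap between days were Hes5, a Notch effector (1.23 to 280.2 CPM), Fabp7, a radial glial fatty acid binding protein (3.42 to 557 CPM), Neurog1, a proneural factor (0 to 121 CPM, at least 58.2-fold), Pou3f3, a POU partner (0 to 107 CPM, at least 51.5-fold), Dbx1, a progenitor homeobox factor (4.74 to 275 CPM), and Pou3f2, another POU partner (0.617 to 53.2 CPM). The bounds for genes without a D0 read count 3 reads over the D0 group as the floor. Otx2, a head organiser and pluripotency-exit factor, fell from 218 to 11.6 CPM.

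Of 10 genes known to be bound by SOX2 with OCT4 in pluripotent cells, 6 (Pou5f1, Nanog, Utf1, Tdgf1, Zfp42 and Fgf4) are also among the markers of undifferentiated cells above. Reads were found for 8, and 5 reached 30 reads, of which 4 did so through D0 (Pou5f1 with 2473 of 2478 reads, Utf1 with 84 of 84, Lefty1 with 71 of 74 and Tdgf1 with 66 of 66), so that no count or median of this list is read. Trim28, a corepressor with reads on every day, fell from 467 to 266 CPM between D0 and D6 (-0.79 ± 0.13 on the log2 scale, limma-voom, adjusted p = 1.22e-06). Of 10 genes known as SOXC targets, 6 are also among the neuronal markers. Of the 10, 8 were called higher at D6 than at D0, 1 lower (Tead2, 207 to 156 CPM) and 1 neither (Stmn1), against 19.4% and 18.2% of all genes. Dcx (0 of 177 reads at D0), Elavl4 (7 of 168), Elavl3 (11 of 259) and Map2 (12 of 388) reached the minimum through D4 and D6, so nothing is read from this count. Tubb3, the neuronal tubulin, moved from 140.4 ± 3.91 to 915 ± 102 CPM and Map2, a dendrite protein, from 8.17 ± 3.03 to 250.0 ± 17.9 CPM (SD, n = 3). From D0 to D2, Tubb3, Stmn1 and Stmn2 were called lower, as were 6.32% of all genes. Stmn1, a tubulin-binding protein, had a mean of 1455 CPM at D0, 525 at D2, 1277 at D4 and then 1588 on the last day.

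The genes whose level followed each SOX gene most closely over the 12 libraries were taken among 5664 genes with at least 100 reads, by Pearson's r of log2 CPM, as a description of points that share libraries, depth and day. Sox4 was followed by Serinc1 (0.98), Mllt11 (0.98) and H2bu2 (0.97), and Sox11 by H2bu2 (0.95), Arl4d (0.95) and Marcks (0.94), so that H2bu2, which rose from 29.3 to 259 CPM, stood in both lists. Sox1 was followed by Irx3 (0.91), Sfrp2 (0.90) and Ift27 (0.89), all of which peaked at D2. Sox2 was followed by Jarid2 (0.95), Pdzd4 (0.94) and Mbtd1 (0.93), which were lowest at D2. Sox3 was followed by Zfp36l1 (0.92), Keap1 (0.84) and Ints14 (0.84), and Sox12 by Fam8a1 (0.92), Srsf10 (0.91) and Zcchc8 (0.90).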

How the data were processed

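Direct RNA libraries of P19 cells at D0, D2, D4 and D6 (3 each) were analysed from the authors' table of single reads. The authors aligned reads with minimap2 2.20 to mm10 transcripts and estimated tails with Nanopolish. The deposited columns hold the tail length in nt, mapping positions, a mapping quality score and a barcode confidence (fraction from 0 to 1); a second table with the authors' own fold changes and p-values was not used. Of 6306434 lines, 69 were malformed and 4.59% had no barcode; 77.7% of the rest had a passing tag. Each of 13 sequencing runs held 1 day only, so run and day cannot be told apart; days were taken from the sample titles, although the names of all 3 runs with D0 reads carry the mark D2 beside a word for undifferentiated cells. Reads were tallied per gene and fitted with limma 3.58.1 (voom, trimmed-mean scaling, R 4.3.3), since the files deposit no counts, on genes with at least 30 reads, with Benjamini-Hochberg adjustment over all 9309. Tails were compared with limma on medians and shares per library. Scripts were tested on simulated data. P-values rest on the spread between libraries, which limma moderates with a spread shared over all genes (62.6 degrees of freedom per gene for abundance). Tail intervals rest on limma's standard error and degrees of freedom, and intervals of read ratios cover counting error only. Members, lists and named genes (the listed SOX genes, the 3 genes most alike each with at least 100 reads, and up to 6 partner genes with the largest called change without overlap) were chosen with earlier results of these data known. Replicate numbers were not taken as pairs, since not every same-numbered pair of libraries deviated together.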

Additional observations from a re-analysis of the deposited data

How the results depend on the processing

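Of the changes in abundance called in the 8 SOX genes, those of Sox1 (D2 against D0), Sox4 (D6 against D4, D6 against D0), Sox9 and Sox11 (D6 against D0) held in every alternative that could be run for them. Thinning all libraries to the smallest left 1, 0, 1 and 2 calls in D2 against D0, D4 against D2, D6 against D4 and D6 against D0, in place of 2, 3, 2 and 7. Mapping quality of at least 10 left 1 call in D4 against D2, and limma-trend 1 in D6 against D4. Library totals alone gave 3 calls in D2 against D0, with Sox3 added (0.62), and 3 in D6 against D4, with Sox2 added (0.49). Leaving out 1 library at a time gave 2 calls in D2 against D0, 0 to 3 in D4 against D2, 1 to 2 in D6 against D4 and 5 to 7 in D6 against D0, 0 for either tail measure and 5 paralog shares without overlap. Weighting by reads gave 1 call for the median tail. Changes that did not pass the test, and Sox2 when thinned, turned sign as follows. In D2 against D0, Sox4 was 0.054 with library totals alone, Sox21 -0.028 at a barcode confidence of at least 0.9 and Sox12 0.10 when thinned. In D4 against D2, Sox12 was 1.58 at mapping quality of at least 10, 0.056 at the higher barcode confidence, 0.16 with limma-trend and 0.65 per transcript, and Sox2 0.027 with limma-trend and 0.14 per transcript. In D6 against D4, Sox12 was -0.56 at mapping quality of at least 10 and Sox21 -0.41 when thinned. In D6 against D0, Sox12 was -0.018 at mapping quality of at least 10 and Sox2 0.054 when thinned. The Sox3 share of tails of 30 to 90 nt was lower at D6 when the limits were 35 and 85 nt (-3.78 points) or the values weighted (-0.28 points). The causes were not tested. Thinning and the mapping quality limit leave fewer reads, and the latter also removes most Sox12 reads. With 1 library left out, uncalled values that turned sign spanned, in D2 against D0, -0.28 to 0.058 (Sox4), -0.027 to 1.199 (Sox9) and -0.63 to 0.038 (Sox12); in D4 against D2, -0.10 to 0.13 (Sox2) and -0.38 to 0.28 (Sox12); in D6 against D4, -0.47 to 0.016 (Sox3) and -0.042 to 0.70 (Sox21). For tails they spanned -3.16 to 7.80 nt (Sox2), -1.18 to 8.66 nt (Sox3) and -2.20 to 9.90 nt (Sox12) in the median, and -4.00 to 1.33 points (Sox2) and -1.37 to 2.70 points (Sox3) in the share. The replicate block gave 2, 3, 2 and 6 calls in the 4 comparisons and 0 for both tail measures. Same-numbered libraries deviated together in 5 of 18 pairs by a correlation above 0.1 (-0.15 to 0.23), as did 2 of 36 pairs with different numbers, and were not taken as paired because not every pair exceeded 0.1. The low counts of Sox1, Sox9 and Sox21 limit what these libraries can show of them.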

Other observations

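Other members of the SOX family were sparse. Of 11 listed genes, 6 had reads (Sox5, Sox6, Sox7, Sox8, Sox13 and Sox18), and Sox10, Sox14, Sox15, Sox17 and Sox30 were at 0 in every library. Their summed level was 25.2 to 37.0 CPM at D0 and 40.8 to 60.8 CPM at D6. Of the 3 with at least 30 reads, Sox13, a SOXD gene, rose from 6.32 ± 0.776 to 24.8 ± 2.42 CPM between D0 and D6 (SD, n = 3, limma-voom, adjusted p = 0.0019), while Sox5 and Sox6 were not called. Sox13 had 9, 11, 22 and 28 reads on the 4 days in turn. It reached the minimum of 30 only through D4 and D6, in which it is high, so its call is partly set by that minimum. Among the glial markers, the glutamate transporter gene Slc1a3 had 62.5, 2.68, 53.6 and 19.8 CPM on the 4 days in turn. Of the 8 neural crest markers, 6 had reads, and their sum was 33.3 to 40.3 CPM at D0, 0 to 16.1 at D2, 8.16 to 16.4 at D4 and 21.0 to 46.0 at D6. Endoderm and mesoderm lists had no gene with enough reads to test, and their sums stayed at or below 16.1 CPM and 11.8 CPM in every library.

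Sox1 also ended at 4 weaker sites with neither hexamer in the 40 nt before them, 2005, 1859, 1817 and 704 nt before the annotated end, with 18, 13, 12 and 13 reads. The 20 bases after these ends held 1, 10, 3 and 5 adenosines. The end of Sox9 1845 nt before its annotated end carried ATTAAA and was followed by 6 adenosines in 20 bases. The Sox21 end 162 nt before its annotated end had no signal in that window and 15 reads.

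Few reads covered a whole SOX mRNA. The share that spanned at least 90% of the transcript was 5.70% for Sox2 and 3.79% for Sox3, whose transcripts are 2057 and 2065 nt long, 1.16% for Sox9 and 0% for the others.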
